A study of Callithrix jacchus and Rattus norvegicus and Loxodonta africana with 31 samples.

Results

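Gene expression in the testis of the common marmoset (Callithrix jacchus), a New World monkey, was set against expression in its brain, gene by gene, over the autosomes. The values were the deposited testis column and the 2 deposited brain columns of 1 table, 1 brain column of a male and 1 of a female. Genes marked as autosomal filled 18878 of the 19681 rows. Genes were called high in both tissues when they stood at 1 FPKM or more in each of these columns and at least 2 units of log2(FPKM + 1) above every heart, kidney and liver column of the same table. FPKM scales the fragments of a gene to the length of its transcript and to the size of its library. By that rule 59 genes were high in both tissues, 581 in testis alone and 608 in brain alone.

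The series holds 31 samples of 4 species, 14 of them marmoset, and was made to study Y-chromosome genes across mammals. The labels list 3 marmoset testis samples from 2 males and 4 marmoset brain samples, which are frontal cortex and cerebellum of 1 male and 1 female. Heart, kidney and liver each have 1 male and 1 female sample, and ovary has 1 sample. The labels give no treatment, genotype or age for these animals. Polyadenylated RNA was sequenced from strand-specific libraries. Per the labels, the testis samples of 1 of the 2 males were sequenced with shorter reads on another instrument than the rest. How the 3 testis samples became 1 column, and which brain samples each brain column holds, is not stated. The testis value is therefore the authors' own, with no SD and no n, and an SD in brain is over the 2 columns.

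The testis holds germ cells that pass through mitosis, meiosis and spermiogenesis, in tubules lined by Sertoli cells, with steroid-producing Leydig cells between the tubules. Brain tissue holds neurons, which release transmitter from vesicles at synapses, together with astrocytes, microglia and myelin-forming oligodendrocytes. Both organs build long microtubule-based cell extensions, the axon and the sperm tail, and both are known for transcriptomes of high complexity. Sertoli cells and oligodendrocytes are both known to build tight junctions from claudin 11.

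Both labels were checked against marker genes, and the germ cell genes named here were chosen after their values were seen. Of the early germ cell genes, DDX4 and DMRT1 were present in testis. Others were not, with 3 of 9 spermatogonial markers and 9 of 17 meiosis genes under 1 FPKM there. DDX4, an RNA helicase of germ cells, stood at 29.8 FPKM in testis, against 0.0333 and 0 FPKM in the male and female brain columns. DMRT1, a transcription factor of spermatogonia and Sertoli cells, stood at 18.2 FPKM in testis and was listed at 0 in both brain columns. The 4 genes of late, post-meiotic germ cells named next were near 0 in the same column. TNP1, which packs sperm chromatin, was at 0.169 FPKM in testis, PGK2, the sperm phosphoglycerate kinase, at 0.0293 FPKM, ODF1, a protein of the sperm tail, at 0.0542 FPKM and ACR, the acrosomal protease acrosin, at 0.0544 FPKM. In the rat testis of the same series, in a separately normalized table, TNP1 stood at 3396 FPKM, PGK2 at 383.5 FPKM, ODF1 at 3717 FPKM and ACR at 168.7 FPKM. In the marmoset testis column DDX4 and DMRT1 were thus present, and each of these 4 late genes was under 1 FPKM. LDHC, the germ cell lactate dehydrogenase, was at 1.89 FPKM in that column and at 991 FPKM in rat testis.

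Each brain column held genes of both sampled regions. TBR1, a transcription factor of cortical neurons, stood at 0.148 FPKM in testis, against 16.1 and 22.2 FPKM in the male and female brain columns. GABRA6, a GABA receptor subunit of cerebellar granule cells, stood at 0.0988 FPKM in testis, against 119.7 and 98.1 FPKM in the male and female brain columns. Testis was low for both genes, and the male and female brain columns lay close together. Summed over the 10 cortical neuron markers, the level was 11.2 FPKM in testis, against 652 and 592 FPKM in the male and female brain columns. SLC17A7, known from cortex and cerebellum, gave 175 and 159 FPKM of these brain sums. The sum by itself therefore does not tell the 2 regions apart. The sum over 12 cerebellar neuron markers was 6.29 FPKM in testis, against 603 and 470 FPKM in brain, and 9 of the 12 were under 1 FPKM in testis. In bulk tissue, fewer cells of a type and less RNA per cell cannot be told apart, and this applies to every comparison that follows.

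Against all 18878 autosomal genes, 0.313% were high in both tissues, 3.39% were high in testis and 3.53% were high in brain. The 59 shared genes made up 9.219% of the 640 genes high in testis and 8.846% of the 667 high in brain. These classes were defined by the values described, so their levels are a description without a test. In testis the 59 genes lay between 3.81 and 305 FPKM with a median of 12.9 FPKM, and in brain, as the mean of both columns, between 3.88 and 478 FPKM with a median of 26.6 FPKM. The highest heart, kidney or liver column was under 1 FPKM for 34 of the 59. For 26 of the 59 at least 1 of those columns was listed at 0, and such a listed 0 may stand for an estimate that failed.

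**Figure D1:**
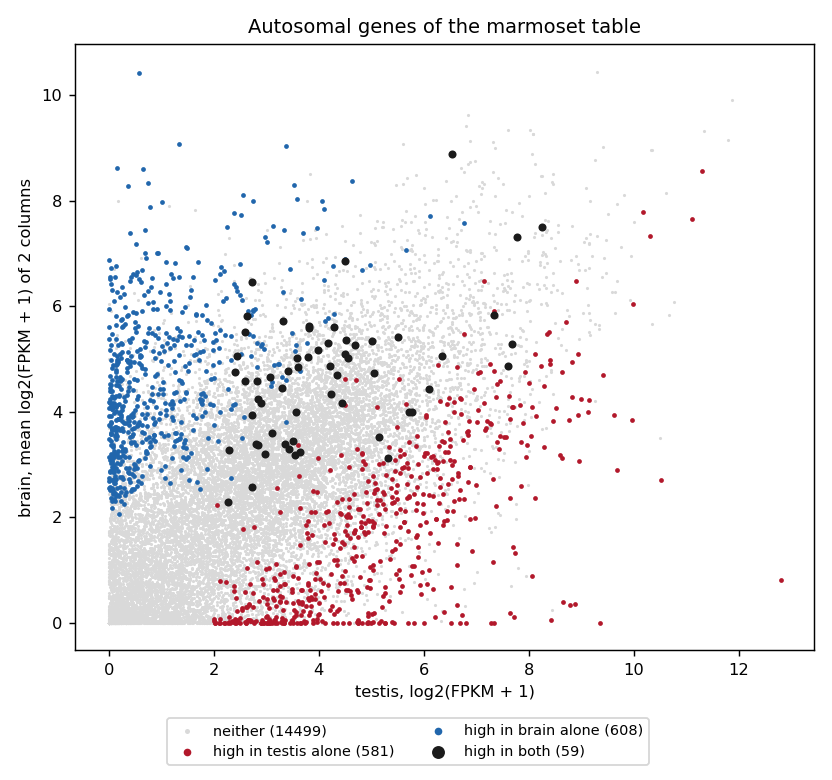
Level of each autosomal gene tested in marmoset testis (horizontal axis) and brain (vertical axis, mean of 2 columns), both as log2(FPKM + 1). Black points are the 59 genes high in both, red points the 581 high in testis alone, blue points the 608 high in brain alone and grey points all others. The red points lie mostly to the lower right and the blue points mostly to the upper left, with medians of 30.2 and 0.494 FPKM in testis, and the black points lie between them.

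The genes of a single tissue parted the organs widely. The 581 genes high in testis alone had a median of 30.2 FPKM in testis, against 1.92 FPKM in brain, and 110 of them were under 0.1 FPKM in both brain columns. The 608 genes high in brain alone had a median of 0.494 FPKM in testis, against 19.8 FPKM in brain, and 123 of them were under 0.1 FPKM in testis. Testis held between 0 and 71.9% of the brain level of these 608 genes, with a median of 2.39%, and less than 1% for 194 of them. SNAP25, a membrane fusion protein of synapses, stood at 0.501 FPKM in testis, against 1327 and 1414 FPKM in the male and female brain columns, the largest gap on the brain side. Of the genes high in testis alone, 318 still stood at 1 FPKM or more in both brain columns, and of those high in brain alone, 218 stood at 1 FPKM or more in testis.

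Testis and brain were also compared directly, with limma on log2(FPKM + 1). The lone testis column was assumed to vary like the columns of the other tissues. A gene passed at an adjusted p under 0.05 and a difference of at least 1. Of 15747 autosomal genes tested, 2502 (15.9%) were higher in testis than in brain and 2153 (13.7%) were lower. Over all tested autosomal genes the median difference was 0.12, and it became 0.01 when columns were scaled to a common median ratio, with 2414 genes then higher and 2579 lower. Without the female brain column 1375 genes were higher and 1429 lower. Without the male brain column 1492 were higher and 1482 lower.

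Among the 59 genes high in both, 6 (10.2%) were higher in testis than in brain, 21 (35.6%) were lower and 32 (54.2%) did not pass. Testis lay above both brain columns for 17 genes, below both for 38 and between them for 4. The male and female brain columns differed by 2-fold or more for only 3 of the 59, FRRS1L, SNCG and TTYH1. The levels of these genes in testis and in brain chose them, so these shares are a description. At a pseudocount of 0.1 in place of 1, the calls of CLDN11, PPP1R1B, SLC13A4, TMEM132A, KIF5C, PTPRN2 and ELAVL2 did not hold, with differences of the same sign.

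**Figure D2:**
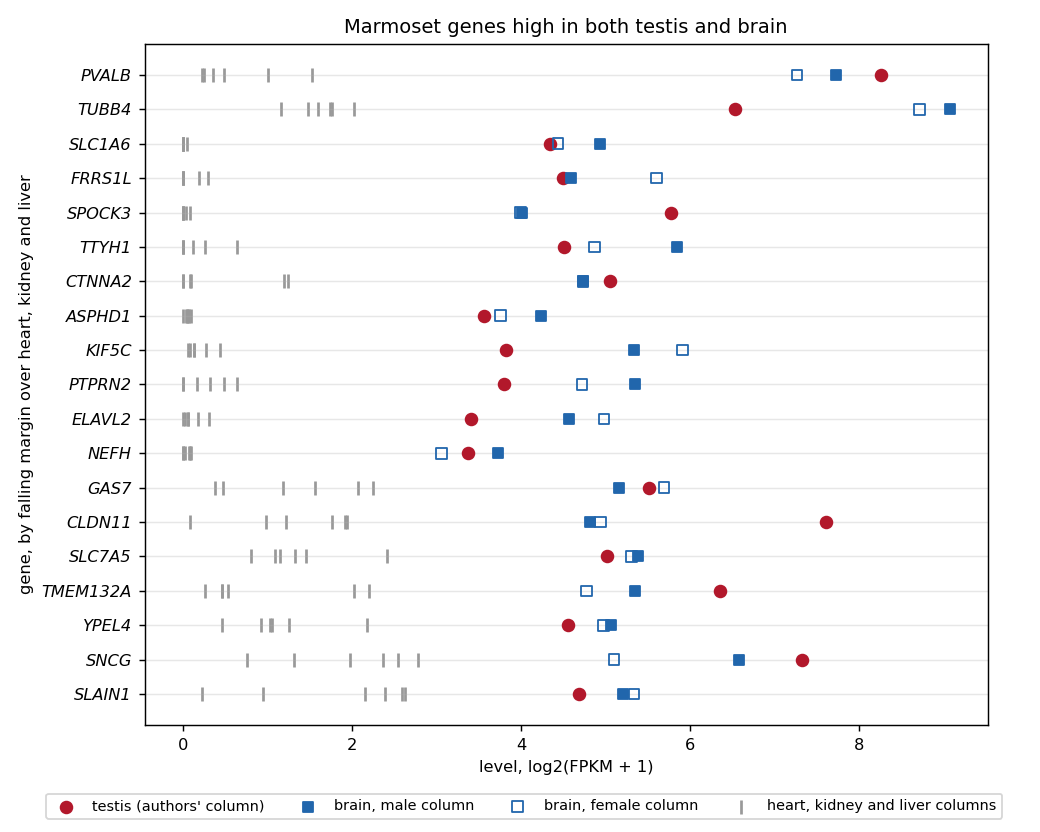
Level, as log2(FPKM + 1), of 19 genes high in both tissues, ordered by their margin over heart, kidney and liver. Red circles are testis, filled and open blue squares the male and female brain columns, and grey ticks the 6 heart, kidney and liver columns. PVALB, TUBB4 and SLC1A6 lead by margin, and CLDN11, SPOCK3 and TMEM132A have the testis circle to the right of both brain squares.

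PVALB, which encodes the calcium-binding protein parvalbumin of fast-firing neurons, had the widest margin of all. It stood at 305 FPKM in testis, against 212 and 153 FPKM in the male and female brain columns, and at most 1.87 FPKM in any heart, kidney or liver column. Testis was the highest of all columns for this gene, and its difference from brain was 0.76 ± 0.35 (SE, limma adjusted p = 0.167). Ovary was at 0.0852 FPKM. TUBB4, the deposited symbol of the beta tubulin named TUBB4A in the Ensembl name table, stood at 91.8 FPKM in testis, against 537 and 419.9 FPKM in the male and female brain columns. Both brain columns lay far above testis, and the difference was -2.36 ± 0.39 (SE, limma adjusted p = 0.00679). Beta tubulin genes are near-identical copies in parts, and how reads shared between them were assigned is not stated, so this value is uncertain.

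Receptors, channels and transporters gave 13 of the 52 genes with a symbol. Of these, 1 was higher in testis, 3 were lower and 9 did not pass. Over the 59 the shares were 10.2% higher and 35.6% lower, and over all tested genes 15.9% and 13.7%. The counts of this group and of those that follow are a description of genes chosen by these values. SLC1A6, a glutamate transporter known from Purkinje cells of the cerebellum, stood at 19.3 FPKM in testis, against 29.7 and 20.7 FPKM in the male and female brain columns, and at 0.0296 FPKM or less in heart, kidney and liver. Testis lay just below the female brain column. The difference was -0.35 ± 0.26 (SE, limma adjusted p = 0.385), with a 95% interval of -0.99 to 0.30. FRRS1L, an accessory protein of AMPA receptors, stood at 21.6 FPKM in testis, against 23.1 and 47.7 FPKM in the male and female brain columns, so that testis lay just under the male column and the brain columns themselves were far apart. TTYH1, a tweety family membrane protein, stood at 21.8 FPKM in testis, against 56.7 and 28.3 FPKM in the male and female brain columns, below both brain columns.

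GRIN2C, a subunit of the NMDA glutamate receptor, stood at 20.8 FPKM in testis, against 19.3 and 14.8 FPKM in the male and female brain columns. Testis was slightly above both brain columns, and the difference was 0.29 ± 0.39 (SE, limma adjusted p = 0.659), with an interval of -0.69 to 1.26. GABRD, the delta subunit of the GABA receptor, stood at 5.23 FPKM in testis, against 65.4 and 46.5 FPKM in the male and female brain columns, and was lower in testis by a difference of -3.17 ± 0.32 (SE, limma adjusted p = 0.00107). CCKBR, a receptor of gastrin and cholecystokinin, was also lower in testis, with 6.15 FPKM in testis, against 20.3 and 15.8 FPKM in brain.

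SLC13A4, a sulfate transporter, was the 1 member of this group that was higher in testis. It stood at 34.3 FPKM in testis, against 12.4 and 8.93 FPKM in the male and female brain columns, and the difference was 1.61 ± 0.25 (SE, limma adjusted p = 0.00574). The other members did not pass. ADORA1, an adenosine receptor, was at 17.0 FPKM in testis, against 33.9 and 43.4 FPKM in brain. GPR37, a G protein-coupled receptor, was at 9.77 FPKM in testis, against 10.1 and 7.56 FPKM in brain, with testis between the brain columns. SLC7A5, a transporter of large neutral amino acids, was at 31.5 FPKM in testis, against 40.9 and 38.6 FPKM in brain. KCNN1, a calcium-activated potassium channel, was at 3.86 FPKM in testis, against 12.1 and 6.08 FPKM in brain, and TMEM63C, a membrane protein of a channel family, at 5.97 FPKM in testis, against 10.7 and 8.28 FPKM in brain.

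Genes of vesicles and secretion gave 6 members, of which 0 were higher in testis and 3 were lower in the limma fit. Over the 59, 10.2% were higher and 35.6% lower. STX1A, a syntaxin of the vesicle fusion machinery, stood at 18.6 FPKM in testis, against 52.5 and 43.3 FPKM in the male and female brain columns. Testis was below both brain columns, and the difference was -1.31 ± 0.41 (SE, limma adjusted p = 0.0599). With the sex of the animal as a block it was lower, at a limma adjusted p of 0.0179. SYT2, a synaptotagmin that senses calcium at fast synapses, stood at 7.60 FPKM in testis, against 11.1 and 11.0 FPKM in the male and female brain columns, and the difference was -0.49 ± 0.18 (SE, limma adjusted p = 0.0958). CHGB, a granin of dense-core granules, stood at 5.03 FPKM in testis, against 40.2 and 50.1 FPKM in the male and female brain columns, with a difference of -2.93 ± 0.23 (SE, limma adjusted p = 0.000382), and both brain columns lay far above testis.

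PTPRN2, a phosphatase-like protein of secretory granules, stood at 12.9 FPKM in testis, against 39.7 and 25.4 FPKM in the male and female brain columns. The difference was -1.24 ± 0.31 (SE, limma adjusted p = 0.0306). Without the male brain column it was smaller than 1, at -0.93. PACSIN1, which acts in vesicle retrieval, was lower in testis with 10.9 FPKM in testis, against 30.6 and 32.5 FPKM in brain. CPNE7, a copine that binds membranes in a calcium-dependent way, was at 3.81 FPKM in testis, against 3.60 and 4.17 FPKM in brain, with testis between the brain columns and a difference of -0.02 whose interval was -0.33 to 0.29.

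The cytoskeleton and cell adhesion gave 11 members, of which 1 was higher in testis, 3 were lower and 7 did not pass. Over the 59, 10.2% were higher and 35.6% lower. NEFH, the heavy neurofilament subunit of large axons, stood at 9.32 FPKM in testis, against 12.3 and 7.33 FPKM in the male and female brain columns, and at 0.0679 FPKM or less in heart, kidney and liver. Testis lay between the brain columns. The difference was -0.03 ± 0.29 (SE, limma adjusted p = 0.971), with an interval of -0.73 to 0.68. KIF5C, a kinesin motor of axons, stood at 13.1 FPKM in testis, against 39.6 and 59.3 FPKM in the male and female brain columns, and was lower in testis by a difference of -1.81 ± 0.32 (SE, limma adjusted p = 0.00925). CTNNA2, an alpha catenin of neurons, stood at 32.2 FPKM in testis, against 25.6 and 25.6 FPKM in the male and female brain columns. Its difference was 0.32 ± 0.22 (SE, limma adjusted p = 0.350), with an interval of -0.24 to 0.87.

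GAS7, a membrane and actin-associated protein, stood at 44.7 FPKM in testis, against 34.6 and 50.7 FPKM in the male and female brain columns, again with testis between the brain columns. WASF1, an activator of actin branching, was lower in testis with 13.2 FPKM in testis, against 45.5 and 48.6 FPKM in brain. Its difference was -1.76 ± 0.33 (SE, limma adjusted p = 0.0103), and the limma adjusted p was 0.0576 without the female brain column. SLAIN1, a microtubule plus-end protein, was at 24.8 FPKM in testis, against 36.0 and 39.4 FPKM in brain. JAKMIP1, a protein that binds microtubules, was at 6.90 FPKM in testis, against 8.97 and 7.40 FPKM in brain. MTCL1 and MTCL2, a pair of related microtubule-associated proteins, were both in the list. MTCL1 was at 10.7 FPKM in testis, against 8.06 and 8.04 FPKM in brain, and MTCL2 was at 10.4 FPKM in testis, against 10.1 and 9.56 FPKM in brain.

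CLDN11, the claudin of Sertoli cell junctions and myelin, was the adhesion gene higher in testis. It stood at 195 FPKM in testis, against 27.1 and 29.7 FPKM in the male and female brain columns, and at most 2.83 FPKM in heart, kidney and liver. Testis was the highest column by far, and the brain columns lay close together. The difference was 2.74 ± 0.59 (SE, limma adjusted p = 0.0178). The limma adjusted p was 0.0854 without the male brain column and 0.0779 without the female one. Ovary stood at 27.9 FPKM, a level like that in brain.

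RNA-binding and transcription proteins gave 3 members. ELAVL2, a neuronal RNA-binding protein also known from germ cells, stood at 9.61 FPKM in testis, against 22.7 and 30.6 FPKM in the male and female brain columns, and was lower in testis by a difference of -1.37 ± 0.24 (SE, limma adjusted p = 0.00915). RBFOX3, the splicing factor known as the neuronal marker NeuN, stood at 8.99 FPKM in testis, against 63.9 and 41.7 FPKM in the male and female brain columns, lower in testis with a difference of -2.40 ± 0.37 (SE, limma adjusted p = 0.00559). PEG3, an imprinted zinc finger gene, stood at 67.4 FPKM in testis, against 15.2 and 27.6 FPKM in the male and female brain columns. Testis lay above both brain columns, with a difference of 1.67 ± 0.54 (SE, limma adjusted p = 0.0649). With the sex of the animal as a block PEG3 was higher in testis, at a limma adjusted p of 0.00592.

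Signalling proteins gave 8 members, of which 1 was higher in testis and 5 were lower. Over the 59, 10.2% were higher and 35.6% lower. PPP1R1B, the phosphatase inhibitor DARPP-32 of dopamine-responsive neurons, stood at 51.6 FPKM in testis, against 15.6 and 14.2 FPKM in the male and female brain columns, and was higher in testis by 1.73 ± 0.31 (SE, limma adjusted p = 0.00958). PPP1R17, a phosphatase inhibitor known from Purkinje cells, stood at 4.45 FPKM in testis, against 38.8 and 26.7 FPKM in the male and female brain columns, lower in testis with a difference of -2.61 ± 0.28 (SE, limma adjusted p = 0.00146). PTPN5, a tyrosine phosphatase of the striatum and cortex, stood at 4.30 FPKM in testis, against 20.6 and 33.0 FPKM in the male and female brain columns. The other genes lower in testis were TIAM1, an activator of Rac, with 14.7 FPKM in testis, against 38.4 and 32.3 FPKM in brain, MAPK8IP2, a scaffold of JNK signalling, with 6.50 FPKM in testis, against 17.9 and 15.9 FPKM in brain, and DIRAS1, a small GTPase, with 7.40 FPKM in testis, against 27.8 and 21.1 FPKM in brain.

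Among the remaining 11 genes with a symbol, SPOCK3, a secreted proteoglycan of the testican family, stood at 53.9 FPKM in testis, against 15.1 and 14.9 FPKM in the male and female brain columns. The brain columns were nearly equal, testis lay far above both, and the difference was 1.78 ± 0.19 (SE, limma adjusted p = 0.00139). TMEM132A, a membrane protein, stood at 80.6 FPKM in testis, against 39.9 and 26.4 FPKM in the male and female brain columns, with a difference of 1.29 ± 0.34 (SE, limma adjusted p = 0.0337). Without the female brain column its difference was 1.00 and its limma adjusted p 0.132. SNCG, gamma synuclein, stood at 159.9 FPKM in testis, against 94.4 and 33.3 FPKM in the male and female brain columns. Testis was above both brain columns, which differed by more than 2-fold from each other, and the difference was 1.49 ± 0.83 (SE, limma adjusted p = 0.240). TMEM130, a membrane protein, had the largest difference below brain of the 59, with 5.66 FPKM in testis, against 80.9 and 93.7 FPKM in brain and a difference of -3.72 ± 0.24 (SE, limma adjusted p = 0.00018). SCD5, a stearoyl desaturase known from brain, was at 17.8 FPKM in testis, against 19.5 and 19.0 FPKM in brain. NAT8L, which makes N-acetylaspartate in neurons, was at 11.2 FPKM in testis, against 29.4 and 26.7 FPKM in brain. Its difference was -1.25 ± 0.39 (SE, limma adjusted p = 0.0588), and with the sex of the animal as a block its limma adjusted p was 0.0415.

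The members not yet described were ASPHD1 with 10.9 FPKM in testis, against 17.9 and 12.5 FPKM in brain, YPEL4 with 22.6 FPKM in testis, against 32.5 and 30.4 FPKM in brain, CREG2 with 5.62 FPKM in testis, against 4.65 and 5.26 FPKM in brain and NYAP1 with 11.5 FPKM in testis, against 8.74 and 8.03 FPKM in brain, none of which passed. For the row named ANAPC5, a symbol that other rows also carry, no value is given, and 7 members have no symbol.

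At the threshold of 2, the genes with a symbol just inside by margin were NAT8L at 2.03, SLAIN1 at 2.06, WASF1 at 2.07 and MTCL2 at 2.13. Just outside lay BARHL2 at 1.92, CPT1C at 1.92, AKAP12 at 1.89 and EFR3B at 1.88. BARHL2 is a homeobox transcription factor, CPT1C a brain form of the carnitine palmitoyltransferase, and AKAP12 an anchor of protein kinase A. The threshold thus cuts a continuous range of margins.

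Many of these genes belong to families, and the families were chosen for display after the values had been seen. In 21 families with at least 1 other member in the table, the 21 genes high in both were set beside 51 other members. Of these 51, 21 were high in brain alone, in 12 families, 1 was high in testis alone and 29 were high in neither. At 10 FPKM or more in both brain columns stood 34 of the 51, and 16 of these 34, in 12 families, were under 1 FPKM in testis. In these 12 families brain thus held an abundant member that was under 1 FPKM in testis, beside the member high in both.

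**Figure D3:**
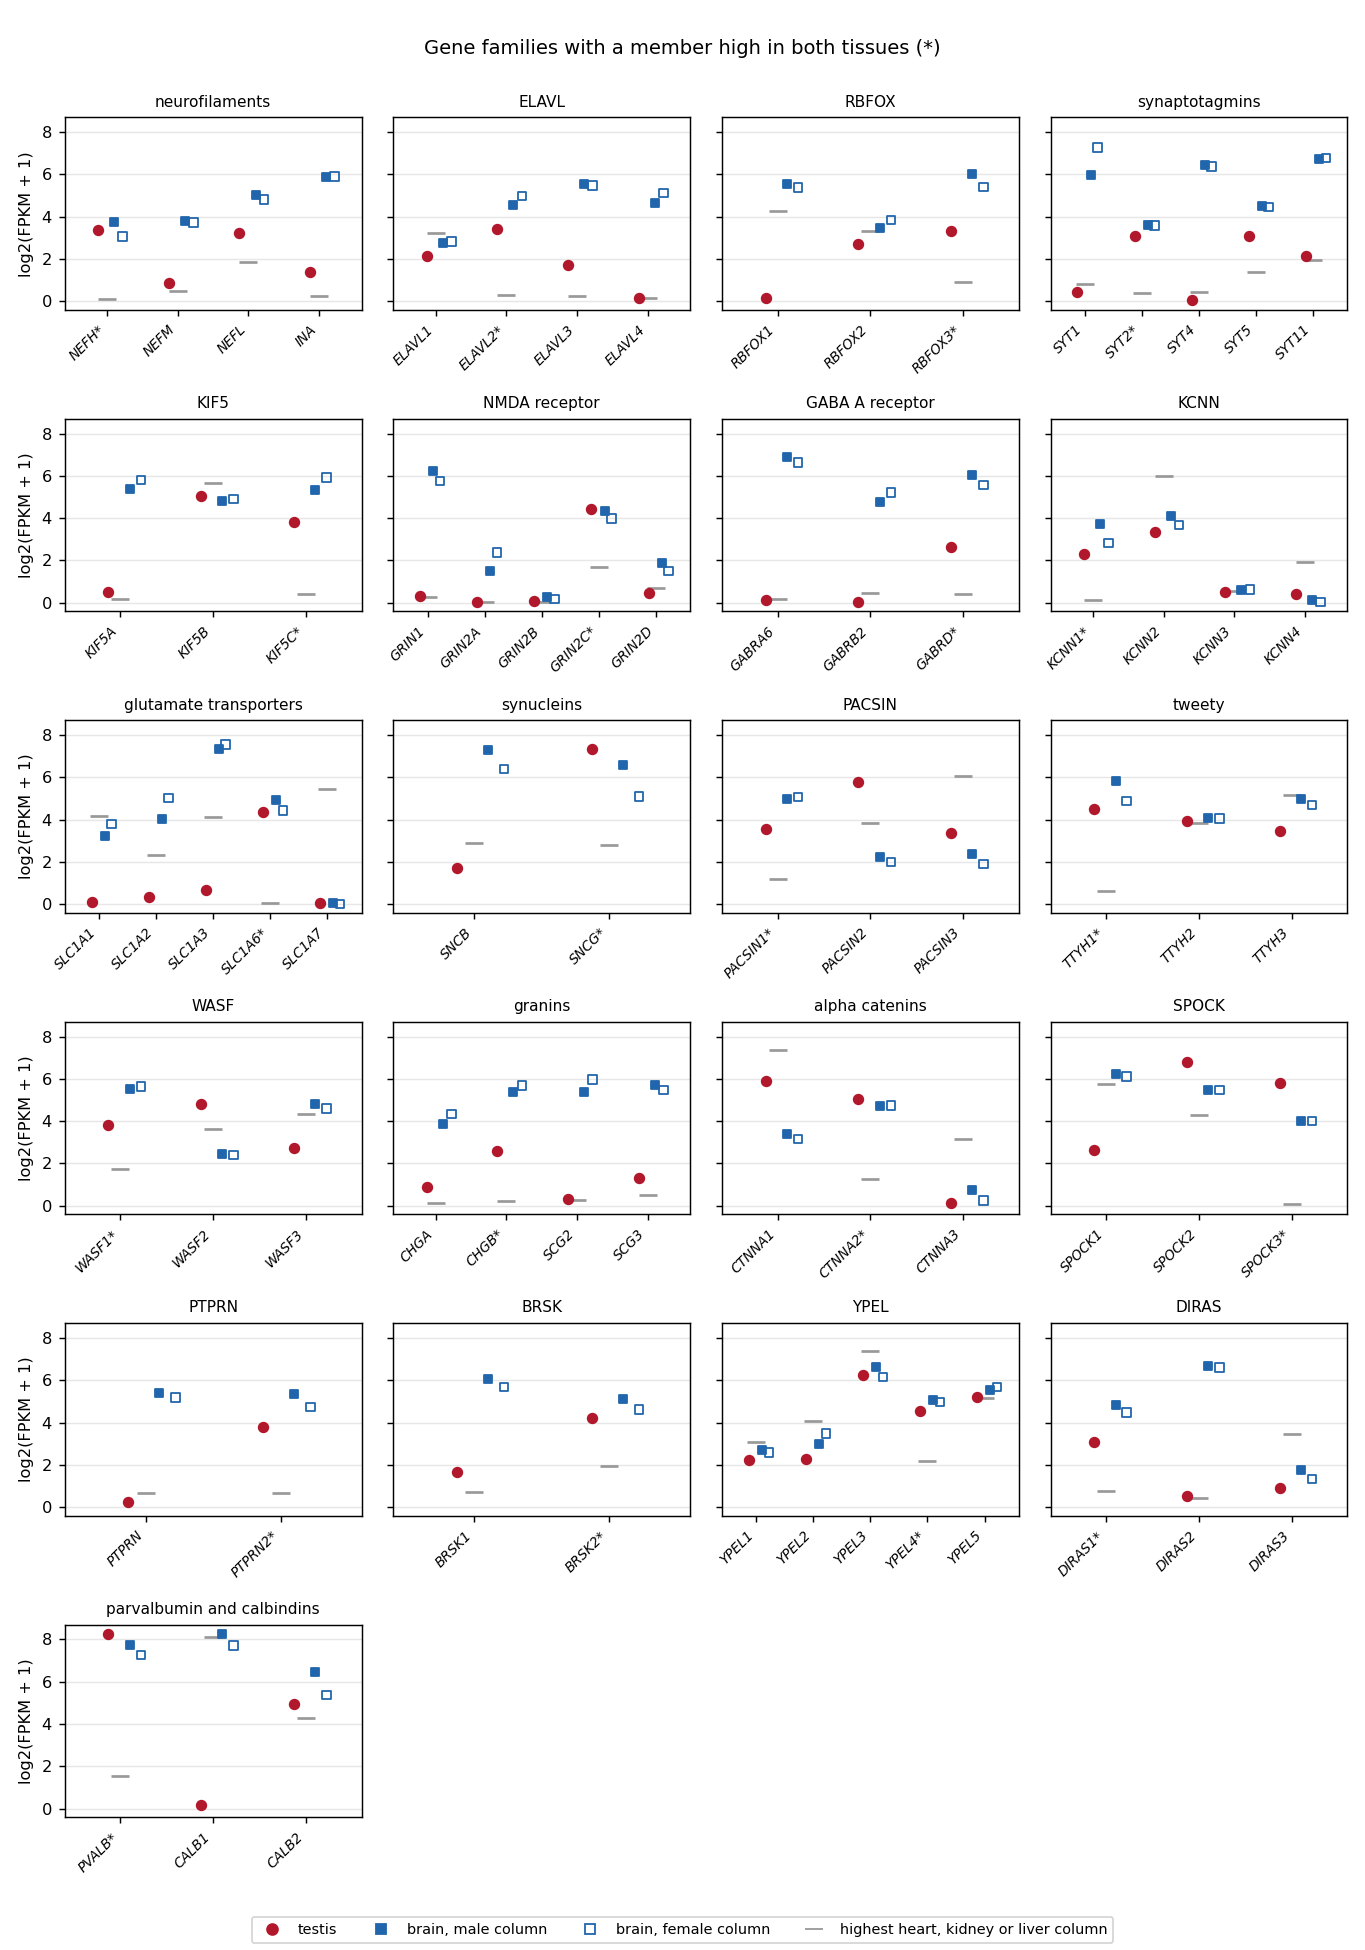
Level, as log2(FPKM + 1), of members of 21 gene families with a member high in both tissues, which is marked with an asterisk. Red circles are testis, filled and open blue squares the male and female brain columns, and grey bars the highest heart, kidney or liver column. In the KIF5, PTPRN and GABA A receptor panels the marked gene has its red circle well above that of the brain-alone members.

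Among kinesin heavy chains, KIF5A, a neuronal form, stood at 0.419 FPKM in testis, against 40.0 and 55.2 FPKM in the male and female brain columns, while KIF5B, the form of most tissues, stood at 31.9 FPKM in testis, against 27.0 and 28.9 FPKM in the male and female brain columns. Testis thus held KIF5B and KIF5C at 31.9 and 13.1 FPKM and KIF5A under 1 FPKM. Among neurofilaments, NEFM was at 0.827 FPKM in testis, against 12.9 and 12.2 FPKM in brain, and INA, alpha internexin, was at 1.62 FPKM in testis, against 58.0 and 58.7 FPKM in brain. NEFL was at 8.38 FPKM in testis, against 31.2 and 27.3 FPKM in brain, a level in testis close to that of NEFH, and its highest heart, kidney or liver column was 2.65 FPKM.

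The receptor families showed the same kind of split. GRIN1, the obligatory subunit of NMDA receptors, stood at 0.235 FPKM in testis, against 73.6 and 53.1 FPKM in the male and female brain columns, while GRIN2C was at 20.8 FPKM in testis. GRIN2A was at 0.0295 FPKM in testis, against 1.85 and 4.21 FPKM in brain and GRIN2D at 0.370 FPKM in testis, against 2.68 and 1.82 FPKM in brain. Testis thus held GRIN2C without a comparable level of GRIN1. Among GABA receptor subunits, GABRB2 was at 0.0258 FPKM in testis, against 26.0 and 35.8 FPKM in brain. GABRD was at 5.23 FPKM in testis, where each of the other 2 subunits shown was under 1 FPKM.

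For glutamate transporters, SLC1A3, a form of astrocytes, stood at 0.615 FPKM in testis, against 160.3 and 187 FPKM in the male and female brain columns, and SLC1A2 stood at 0.275 FPKM in testis, against 15.4 and 31.5 FPKM in the male and female brain columns. Only SLC1A6 of the 5 members shown exceeded 1 FPKM in testis. Among ELAVL genes, ELAVL4 was at 0.0957 FPKM in testis, against 24.3 and 33.6 FPKM in brain and ELAVL3 was at 2.25 FPKM in testis, against 45.6 and 43.6 FPKM in brain, while ELAVL1, the form of most tissues, was at 3.40 FPKM in testis, against 5.69 and 6.07 FPKM in brain. Among granins, SCG2 was at 0.238 FPKM in testis, against 40.3 and 61.6 FPKM in brain and CHGA was at 0.872 FPKM in testis, against 13.5 and 19.2 FPKM in brain. Among synucleins, SNCB was at 2.27 FPKM in testis, against 157 and 83.0 FPKM in brain. Testis was therefore higher for SNCG than for SNCB, and both brain columns were higher for SNCB than for SNCG.

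PTPRN, the relative of PTPRN2, stood at 0.185 FPKM in testis, against 41.3 and 35.2 FPKM in the male and female brain columns. DIRAS2 stood at 0.459 FPKM in testis, against 103 and 95.9 FPKM in the male and female brain columns, and BRSK1, a kinase of neuronal polarity, at 2.16 FPKM in testis, against 65.5 and 49.95 FPKM in the male and female brain columns. Each of these 3 was lower in testis, with differences of -5.05 ± 0.24, -6.10 ± 0.26 and -4.20 ± 0.30 (SE), and limma adjusted p of 6.04e-05, 4.31e-05 and 0.000266. BRSK2, the family member high in both, stood at 17.6 FPKM in testis, against 33.9 and 23.5 FPKM in brain. CALB1, calbindin, another calcium-binding protein of neurons, stood at 0.133 FPKM in testis, against 310.3 and 208 FPKM in the male and female brain columns, where PVALB was at 305 FPKM in testis. CALB2, calretinin, was at 29.5 FPKM in testis, against 87.6 and 40.8 FPKM in brain.

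Other members of a few families were higher in testis than in brain. PACSIN2, the broadly expressed relative of PACSIN1, stood at 53.6 FPKM in testis, against 3.72 and 2.97 FPKM in the male and female brain columns, with a difference of 3.66 ± 0.41 (SE, limma adjusted p = 0.00159). WASF2 was at 27.0 FPKM in testis, against 4.51 and 4.27 FPKM in brain, with a difference of 2.38 ± 0.39 (SE, limma adjusted p = 0.00651), and CTNNA1, the alpha catenin of epithelia, was at 59.4 FPKM in testis, against 9.51 and 7.84 FPKM in brain, with a difference of 2.65 ± 0.29 (SE, limma adjusted p = 0.00140). In these 3 families testis thus held both the broadly expressed gene and the neuronal gene.

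Levels in ovary were read for the same classes, without a test, since ovary has 1 column. By the same fold rule 0.678% of autosomal genes were high in ovary. Of the 59 genes high in testis and brain, 7 (11.864%) were also high in ovary, as were 28 of 581 (4.819%) high in testis alone and 13 of 608 (2.138%) high in brain alone. PEG3 was at 29.5 FPKM in ovary, CTNNA2 at 10.8 FPKM, WASF1 at 12.8 FPKM and ELAVL2 at 5.37 FPKM. For 31 of the 59 the ovary level was under 1 FPKM, among them PVALB, SLC1A6, TTYH1 and NEFH.

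On the testis side of the direct comparison, the genes with the largest differences included several secreted proteins. SCGB1D1, a secretoglobin, stood at 7143 FPKM in testis, against 2.12 FPKM in the male brain column, and was listed at 0 in the female one and in all 6 heart, kidney and liver columns. DEFB126, a beta defensin that coats macaque sperm, stood at 441 FPKM in testis, against 0.330 and 0.214 FPKM in the male and female brain columns, and at 29.0 FPKM in the male kidney column. DEFB129, a related defensin, stood at 342 FPKM in testis, against 0.0652 and 0 FPKM in the male and female brain columns. OBP2A, an odorant-binding protein, was at 267 FPKM in testis, against 2.09 and 0.118 FPKM in brain on 1 of 2 rows that a name table gives that symbol. GSTM3, a glutathione transferase of testis and brain in humans, was at 199.7 FPKM in testis, against 0.228 and 0.0503 FPKM in brain. DEFB129 and GSTM3 were under 1 FPKM in the brain, heart, kidney and liver columns, so only their testis levels brought them into the test. Secretoglobins, defensins, odorant-binding proteins and glutathione transferases have close copies whose reads may be shared.

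Of 12 epididymis markers in the table, 10 were under 1 FPKM in testis, among them CRISP1 at 0.116 FPKM and GPX5 at 0.114 FPKM. Of the 3 tested, EPPIN, a protease inhibitor on sperm, was higher in testis with 23.2 FPKM in testis, against 0.801 and 0.289 FPKM in brain. EPPIN was listed at 0 in the heart, kidney and liver columns, so only its testis level brought it into the test. The summed level of the 12 was 28.1 FPKM in testis, against 1.82 and 0.429 FPKM in the male and female brain columns. The part of epididymal tissue in the levels of the defensins was not tested.

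Other genes with large differences from brain on the testis side were of varied kinds, and some were higher still in another organ. CTSZ, a lysosomal protease, stood at 1452 FPKM in testis, against 9.77 and 11.0 FPKM in the male and female brain columns, with up to 535 FPKM in heart, kidney and liver. SERPINA5, a protease inhibitor of plasma and the male tract, was at 345 FPKM in testis, against 0.349 and 0.0456 FPKM in brain. Its male and female liver columns, at 883 and 716 FPKM, lay above testis. The row named RBM25, a splicing factor, was at 818 FPKM in testis, against 6.38 and 6.47 FPKM in the male and female brain columns. TNNI3, cardiac troponin I, was at 246 FPKM in testis, against 1.44 and 0.401 FPKM in brain, and 2830.1 FPKM in heart. Other cardiac muscle genes were near 0 in testis, with MYL2 at 0.364 FPKM and ACTC1 at 0.0376 FPKM. APOA1, an apolipoprotein of liver, was at 223 FPKM in testis, against 2.31 and 0.294 FPKM in brain, and at 6434 and 6465 FPKM in the male and female liver columns. APOA2, with up to 117748 FPKM in liver, was at 5.95 FPKM in testis, against 16.9 and 5.87 FPKM in brain. YBX3, a nucleic acid-binding protein of germ cells, was at 201 FPKM in testis, against 0.925 and 0.367 FPKM in brain, and its limma adjusted p was 0.0577 without the female brain column.

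Gene lists of testis cell types stood mostly on the testis side, at different rates. Over all tested autosomal genes 15.9% were higher and 13.7% lower. Of 16 piRNA pathway genes, which silence transposons in germ cells, 11 were higher in testis and 0 lower, with a median difference of 2.35. GTSF1, a cofactor of PIWI proteins, stood at 20.01 FPKM in testis, against 0.236 and 0.160 FPKM in the male and female brain columns, and TDRD9, a helicase, at 11.7 FPKM in testis, against 0.549 and 0.511 FPKM in the male and female brain columns. Of 11 meiosis genes tested, 7 were higher and 0 lower, with a median of 2.66. Of 17 meiosis genes in the table, 9 were under 1 FPKM in testis and 15 in both brain columns. Genes under 1 FPKM in all 9 columns were not tested, so such members are missing from this share and median. SYCP1, the central filament of the synaptonemal complex, stood at 12.6 FPKM in testis, against 0.0145 and 0.0176 FPKM in the male and female brain columns, and SMC1B, a meiotic cohesin, at 14.6 FPKM in testis, against 0.0449 and 0.0588 FPKM in the male and female brain columns. DMC1 and SPO11, which act at meiotic breaks, were at 0.0846 and 0.0477 FPKM in testis and were not tested. SYCP1 and SMC1B were thus present in testis, where DMC1 and SPO11 were near 0. GTSF1, TDRD9, SYCP1 and SMC1B were under 1 FPKM in the brain, heart, kidney and liver columns. Only their testis levels brought these genes into the test.

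Late germ cell lists gave fewer calls. Of 4 acrosome genes tested, 0 passed in limma and 0 had an unadjusted p under 0.05, with a median of -0.11, and 9 of the 12 in the table were under 1 FPKM in testis. SPESP1, an acrosomal protein at 8.85 FPKM in testis, against 4.82 and 3.91 FPKM in brain, had the largest difference of the 4, 0.88 ± 0.47 (SE, limma adjusted p = 0.216). Of 17 sperm tail and sperm isozyme genes in the table, 8 were under 1 FPKM in testis. Of the 11 tested, 3 were higher, beside 15.9% of all tested genes, and 0 lower, with a median of 0.92. The 3 were ODF2, a centrosomal and tail protein at 28.5 FPKM in testis, against 2.75 and 2.70 FPKM in brain, ROPN1L at 11.2 FPKM in testis, against 1.29 and 0.421 FPKM in brain and LDHC, the germ cell lactate dehydrogenase, at 1.89 FPKM in testis, against 0.222 and 0.219 FPKM in brain. LDHC had a limma adjusted p of 0.0826 without the male brain column and 0.0848 without the female one. The 1 sperm chromatin gene tested, BRDT, was higher with 1.35 FPKM in testis and was listed at 0 in both brain columns. It was also listed at 0 in the heart, kidney and liver columns, so only its testis level brought it into the test. Of 33 motile cilium genes in the table, 19 were under 1 FPKM in testis. Among the 20 tested, 4 were higher and 2 lower, with a median of 0.39, beside 15.9% higher and 13.7% lower of all tested genes. With the sex of the animal as a block 7 of the 20 were higher.

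Of 9 spermatogonial markers in the table, 3 were under 1 FPKM in testis. Of the 7 tested, 2 were higher and 1 lower, with a median of 1.09, beside 15.9% higher and 13.7% lower of all tested genes. UTF1, a chromatin factor of spermatogonia, was at 23.7 FPKM in testis, against 0.665 and 0.112 FPKM in brain, with a limma adjusted p of 0.0552 without the female brain column. KIT, the receptor of stem cell factor, was lower in testis with 1.59 FPKM in testis, against 24.8 and 20.2 FPKM in brain. Of 10 cell cycle genes, 7 were higher and 0 lower, with a median of 1.42, led by TOP2A at 14.9 FPKM in testis, against 0.0932 and 0.136 FPKM in brain. Of 7 Sertoli cell markers tested, 6 were higher, with a median of 2.74. GATA4 was at 79.6 FPKM in testis, against 0 and 0.0546 FPKM in brain, WT1 at 40.2 FPKM in testis, against 0.420 and 0.429 FPKM in brain and SOX9 at 26.9 FPKM in testis, against 3.41 and 2.18 FPKM in brain, all transcription factors of Sertoli cells. All 4 Leydig cell markers tested were higher, with a median of 5.55. CYP17A1, a steroid hydroxylase of androgen synthesis, was at 277 FPKM in testis, against 2.94 and 5.81 FPKM in the male and female brain columns, and HSD17B3, which makes testosterone, was at 90.9 FPKM in testis and listed at 0 in both brain columns. HSD17B3 was at most 0.103 FPKM in heart, kidney and liver, so only its testis level brought it into the test. Of 6 smooth muscle and fibroblast markers, 4 were higher, or 2 without the female brain column, with a median of 2.34, led by MYH11, a smooth muscle myosin, at 34.7 FPKM in testis, against 1.41 and 0.251 FPKM in brain.

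On the brain side, the genes with the largest differences included genes of synapses, neurons and astrocytes. VSNL1, a neuronal calcium sensor with that symbol on 2 rows, was at 0.123 FPKM in testis, against 409.5 and 376 FPKM in the male and female brain columns on the row with the larger difference. STMN2, a stathmin of growing axons, was at 0.290 FPKM in testis, against 291 and 326 FPKM in the male and female brain columns, and GPM6A, a neuronal membrane glycoprotein, at 1.52 FPKM in testis, against 577 and 504 FPKM in the male and female brain columns. SLC17A7, the vesicular glutamate transporter of cortex and cerebellum, was at 0.326 FPKM in testis, against 175 and 159 FPKM in the male and female brain columns. Its difference was -6.98 ± 0.30 (SE, limma adjusted p = 4.36e-05). ENO2, the neuronal enolase, was at 0.676 FPKM in testis, against 343 and 305 FPKM in brain, and GNG3, a G protein subunit, was at 0.728 FPKM in testis, against 276 and 202 FPKM in brain. RTN1, a reticulon, was at 0.568 FPKM in testis, against 591 and 252 FPKM in brain, so its brain columns differed by more than 2-fold.

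**Figure D4:**
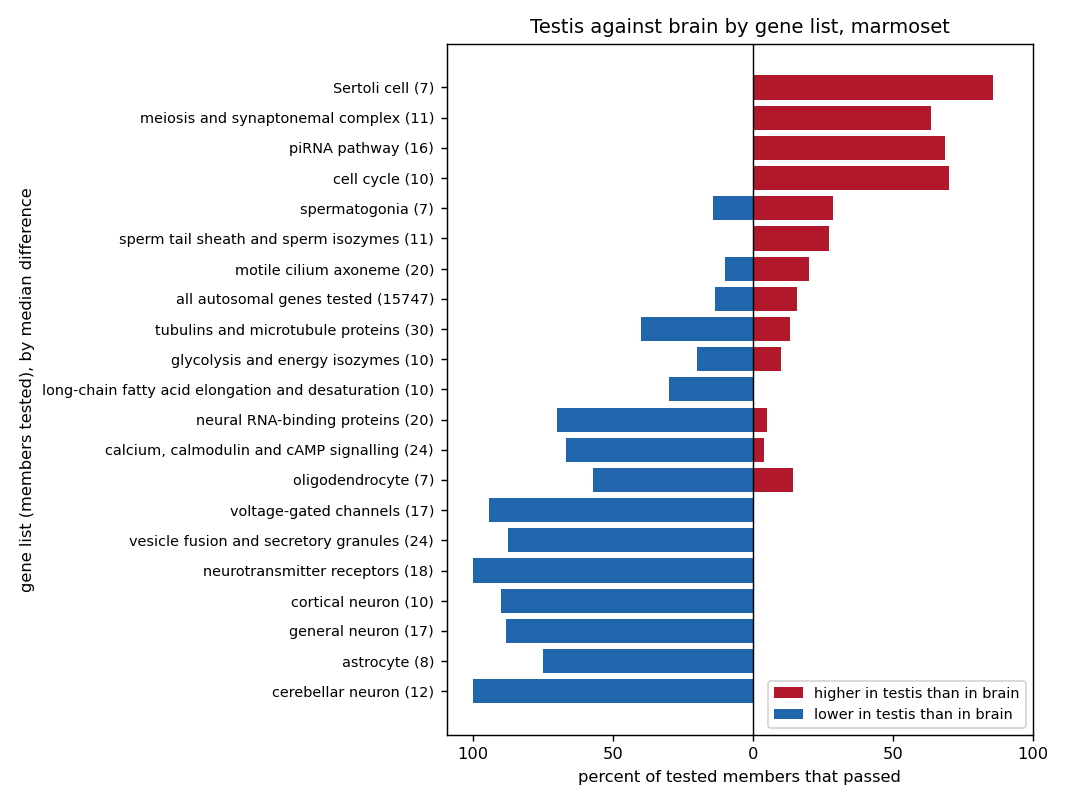
Share of the tested members of each gene list that were higher (red, right) or lower (blue, left) in marmoset testis than in brain, in percent. Lists with at least 7 tested members are ordered by their median difference and the number tested is in brackets. Sertoli cell, meiosis and piRNA lists stand at the top, cerebellar neuron and astrocyte lists at the bottom, and the row of all autosomal genes shows 15.9% and 13.7%.

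The neuronal lists were almost wholly lower in testis. Of 17 general neuron genes 15 were lower and 0 higher, with a median of -3.81, and the 2 that did not pass were NEFH and STX1A. All 12 cerebellar neuron genes and 9 of 10 cortical neuron genes were lower, with medians of -4.53 and -3.79. The 18 genes tested of the neurotransmitter receptor list, which does not hold GRIN2C or GABRD, were lower, with a median of -3.42, as were 16 of 17 voltage-gated channel genes, with a median of -3.21. Of 24 vesicle fusion and granule genes tested, 21 were lower and 0 higher, with a median of -3.37. For comparison, 13.7% of all tested autosomal genes were lower.

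Within these lists a few genes kept a level in testis. VAMP2, the vesicle fusion protein, stood at 47.5 FPKM in testis, against 501 and 582 FPKM in the male and female brain columns. It was lower in testis, and its highest heart, kidney or liver column was 152 FPKM. GABBR1, a subunit of the metabotropic GABA receptor, was at 18.4 FPKM in testis, against 104 and 113 FPKM in brain. HCN2, the pacemaker channel and the 1 channel gene that did not pass, was at 4.32 FPKM in testis, against 8.67 and 7.19 FPKM in brain. UNC13B, which primes vesicles, was at 5.10 FPKM in testis, against 4.34 and 5.65 FPKM in brain, a difference of 0.03 with an interval of -0.82 to 0.89.

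Among glial genes, 6 of 8 astrocyte genes were lower in testis, with a median of -4.31, led by SLC1A3 and by ALDOC at 9.44 FPKM in testis, against 557 and 491 FPKM in brain. Of 7 oligodendrocyte genes tested, 4 were lower and 1 higher, with a median of -2.47. The 1 higher was CLDN11. Of all tested autosomal genes, 15.9% were higher and 13.7% lower. MBP, myelin basic protein, stood at 23.7 FPKM in testis, against 376 and 291 FPKM in the male and female brain columns, and its limma adjusted p was 0.0691 without the male brain column and 0.0559 without the female one. Other myelin genes were low in testis, with ERMN at 0.0398 FPKM and MOBP at 2.99 FPKM. Of 4 microglial genes, 2 were lower, with a median of -1.94.

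Lists shared by many cell types were mixed. Of all tested autosomal genes, 15.9% were higher in testis and 13.7% lower. Of 30 tubulin and microtubule genes tested, 12 were lower and 4 higher, with a median of -1.02, so the higher calls were near the share over all genes. Without either brain column 2 were higher. TUBA1C, an alpha tubulin, was higher in testis with 109.5 FPKM in testis, against 0.320 and 0.177 FPKM in brain, while TUBA1A was at 122 FPKM in testis, against 221 and 294 FPKM in brain, and reads of such close copies may be shared. MAPT, the axonal protein tau, was lower with 2.16 FPKM in testis, against 30.0 and 36.6 FPKM in brain, and MAP4, the form of most tissues, was higher with 28.9 FPKM in testis, against 11.3 and 11.1 FPKM in brain. Of 20 neural RNA-binding genes, 14 were lower and 1 higher, with a median of -2.14. Without the female brain column 9 were lower, and without the male one 2 were higher. The 1 higher, IGF2BP1, an mRNA-binding protein of embryonic and germ cells, was at 3.61 FPKM in testis and listed at 0 in both brain columns. CPEB1, which controls translation in oocytes and neurons, was at 24.3 FPKM in testis, against 18.0 and 12.6 FPKM in brain, and NOVA1, a neuronal splicing factor, was lower with 1.21 FPKM in testis, against 40.7 and 42.7 FPKM in brain.

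Of 24 genes of calcium, calmodulin and cAMP signalling, 16 were lower and 1 higher, with a median of -2.39. PPP3CA, the main calcineurin catalytic subunit of brain, was lower with 4.24 FPKM in testis, against 213 and 220.2 FPKM in brain, while PPP3CC, the catalytic subunit known from testis, was at 13.0 FPKM in testis, against 4.68 and 5.10 FPKM in brain, a difference of 1.25 ± 0.46 (SE, limma adjusted p = 0.0911). Of 10 fatty acid elongation and desaturation genes tested, 3 were lower and 0 higher, with a median of -1.40, and 5 lower with testis and brain columns alone. The list was led by ELOVL4, an elongase of very long chains, at 0.286 FPKM in testis, against 30.7 and 29.3 FPKM in brain. FADS2, a desaturase, was at 44.3 FPKM in testis, against 32.3 and 31.7 FPKM in brain. Of 10 glycolysis and energy genes, 2 were lower and 1 higher, with a median of -1.08, beside 13.7% lower and 15.9% higher of all tested genes. With the sex of the animal as a block 4 were lower, among them PFKP, a phosphofructokinase, at a limma adjusted p of 0.0185 and COX7A2, a cytochrome oxidase subunit, at 0.00347. With testis and brain columns alone 5 were lower, and without either brain column 1 was. COX4I2, an isoform of cytochrome oxidase, was higher with 25.5 FPKM in testis, against 0.654 and 0.419 FPKM in brain, and HK1, a hexokinase, was lower with 6.09 FPKM in testis, against 25.3 and 26.8 FPKM in brain.

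Lists of vessels, blood and housekeeping gave few or no calls. Of 5 endothelial genes 0 passed in limma and 0 had an unadjusted p under 0.05, with a median of 0.30 and, for the largest, FLT1, 2.79 FPKM in testis, against 7.79 and 6.91 FPKM in brain. With testis and brain columns alone FLT1 was lower in testis, at -1.14 and a limma adjusted p of 0.0487. Of 3 genes common to all cells 0 passed and 0 had an unadjusted p under 0.05, with a median of 0.25, and TBP, a general transcription factor, was at 9.93 FPKM in testis, against 9.53 and 7.01 FPKM in brain. With testis and brain columns alone the ribosomal protein gene RPLP0 was higher in testis, at 2.18 and a limma adjusted p of 0.0492. The 1 blood gene in the table, the globin HBD, was at 182 FPKM in testis, against 453 and 222 FPKM in brain and did not pass. For these lists limma's adjusted p is the test, and 0 calls do not show equal levels.

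The classes were read in the rat table by symbol, for 12473 matched autosomal genes. The tables were normalized separately, so no level was tested between the species, and rat levels are given as descriptions. The rat samples are 1 testis of a male, and frontal cortex, cerebellum, heart, kidney and liver of 1 male and 1 female, with no strain, age or treatment given. In rat, 9.44% of the matched genes were high in testis, 4.69% in brain and 0.513% in both. Of 46 matched marmoset genes high in both, 5 were high in both in rat, 28 in rat brain alone, 0 in rat testis alone and 13 in neither. The share of the 46 high in rat testis, 10.87%, was thus near the 9.44% of all matched genes. In rat testis 28 of the 46 were under 1 FPKM. Of 508 matched genes high in marmoset brain alone, 67.5% were high in rat brain, 10.0% in rat testis and 6.5% in both. Of 342 matched genes high in marmoset testis alone, 19.3% were high in rat testis.

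The 5 genes high in both in each species were CLDN11, TTYH1, CTNNA2, JAKMIP1 and TMEM63C. CLDN11 stood at 46.4 FPKM in rat testis, against 31.9 and 116 FPKM in the male and female rat brain columns. TTYH1 stood at 13.0 FPKM in rat testis, against 94.3 and 98.3 FPKM in rat brain, and CTNNA2 at 7.33 FPKM, against 7.36 and 8.75 FPKM. PVALB, the leading gene in marmoset, was at 0.123 FPKM in rat testis, against 165 and 52.7 FPKM in rat brain. NEFH was at 0.0401 FPKM in rat testis, against 4.59 and 30.4 FPKM, and GRIN2C at 0.0785 FPKM, against 36.7 and 9.98 FPKM. These 3 genes were thus high in marmoset testis and under 1 FPKM in rat testis. The 4 late germ cell genes given above were under 1 FPKM in the marmoset testis column and above it in the rat one. The part of late germ cells in these values was not tested.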

How the data were processed

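The deposited values are FPKM per gene in 1 table per species, normalized by the authors across tissues per the file names. How they were normalized is not stated. TopHat 1.4.0 and Cufflinks 2.0.0 were used, per the submitters' processing notes. Genome build and annotation: not given in the sources used here. Coordinates and sequences are therefore left out. FPKM tables hold no counts, so depth is unknown. Summed FPKM per marmoset column ranged from 210712 to 1686921, and 11419 to 12932 rows per column were at 1 FPKM or more.

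Symbols of the 18878 autosomal marmoset rows came from the deposited table (7584), an Ensembl name table (5973) or a RefSeq gene table of the assembly calJac240_pri (1931), and 3390 had none. Since the labels name both cortex and cerebellum samples, the 2 brain columns were used as values of brain without a region.

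The comparison of testis and brain used limma 3.58.1 (R 4.3.3) with its trend option, on log2(FPKM + 1) over 16387 rows at 1 FPKM or more in at least 1 of 9 columns (testis, brain, heart, kidney, liver), with Benjamini-Hochberg adjustment over all of them. This scale understates changes of low genes. The residual degrees of freedom were 4. The fit was tested on simulated data. The male minus female deviations of the columns correlated between tissues in all 6 pairs (Pearson r of 0.525 to 0.703 over genes), and the labels give 1 male and 1 female for these tissues, so the columns were taken as paired by sex in the alternative with a block.

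Named genes are the leading genes by margin, level and difference, those nearest the threshold, and, for each gene list, its members high in both and those with the largest differences. Other members of the 59, of the lists and of the families were named after their values were seen. A list gene was matched by the symbol of its row, and symbols on several rows were left out of the lists. A few members of the families and lists are counted in the lists but not reported here by name. Members and lists were chosen with earlier results of these data known. The p-values rest on the spread between the male and female columns of brain, heart, kidney and liver. They hold no spread of testis, which has a single column, and the main fit had no block by sex. Alternatives were other pseudocounts, filters, scalings and thresholds, the block, and leaving out columns.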

Additional observations from a re-analysis of the deposited data

How the results depend on the processing

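The number of genes high in both (59) depended on the rule. It was 140 at a pseudocount of 0.1, 10 at a pseudocount of 5, 201 at a margin of 1 and 11 at a margin of 3, and 61 to 69 when 1 column was left out. Genes high in testis alone (581) numbered 873, 280, 1514 and 221 under the same 4 changes and 571 to 635 without 1 column. Genes high in brain alone (608) numbered 283 at a pseudocount of 5, 1036 at a margin of 1 and 343 at a margin of 3, and 618 to 713 without 1 column. A lower pseudocount, a smaller margin or 1 column fewer can only loosen the rule for these genes. That all 59 stayed in the list under those changes was therefore fixed in advance and does not show stability. With a minimum of 5 FPKM 54 of the 59 stayed. Median-ratio scaling, which can move a gene either way, gave 73 genes, with all 59 among them. In the limma fit, 1744 genes were higher and 1407 lower at a pseudocount of 5, and leaving out 1 column gave 1375 to 2667 higher and 1429 to 2249 lower. With the replicate block by sex 3331 were higher and 3158 lower, of which 2479 and 2139 were shared with the fit without it. Of 164 named genes tested, 121 passed, all of which also passed with the block and with median-ratio scaling. The block added 7 calls, testis and brain columns alone 8, median-ratio scaling 5, and 1 left-out brain column 1 or 2. Without the female brain column 13 of the 121 no longer passed, without the male one 10, at a pseudocount of 0.1 10, and with testis and brain alone 2. No called value changed sign under these alternatives. The cause of these changes was not tested. Depth is unknown and testis has a single column, which limits what small differences can show.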

Other observations

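Some genes known from liver stood higher in the male than in the female brain column. ALB, albumin, was at 22.2 FPKM in testis, against 52.2 and 6.05 FPKM in the male and female brain columns, and at 155 and 1.90 FPKM in the male and female heart columns. It was listed at 0 in both liver columns, which may be a failed estimate. FGB, a fibrinogen chain, was at 14.4 FPKM in testis, against 3.99 and 0.509 FPKM in brain, and was listed at 0 in the male liver column and at 7193 FPKM in the female one. The fold rule compares with these liver columns. AHSG, a plasma protein of hepatocytes, was at 1.75 FPKM in testis, against 3.11 and 0.318 FPKM in brain. UMOD, a nephron gene, was at 0.106 FPKM in testis, against 0.0180 and 0.0954 FPKM in brain. The part of liver-type transcripts in any comparison here was not tested.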
